A study of Mus musculus with 112 samples.

Results

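The Slc25 genes encode the mitochondrial carrier family, proteins that move nucleotides, phosphate, amino acids, cofactors and other small solutes across the inner mitochondrial membrane. All symbols made of Slc25a and a number that stood in the count tables of both sexes were taken, with 2 symbols left out, which gave 45 members among 32544 symbols. After edgeR's filter on low counts, 34 of the 45 members and 11886 genes in all could be tested. Total RNA, freed of ribosomal RNA, was sequenced with a stranded kit from the gastrocnemius (calf) muscle of 56 Diversity Outbred mice aged 16 weeks, an outbred stock in which each mouse carries its own mixture of founder genomes. A single hindlimb had been fixed in a cast for 3 weeks. The 4 groups of 28 libraries are the immobilized limbs of females, the control limbs of females, the immobilized limbs of males and the control limbs of males. The right limb was cast and the left limb served as control in all 56 mice, so side and cast cannot be told apart. No uncast mouse is among these groups, and each control limb comes from a mouse that carried a cast. The comparison of the limbs asks how these carriers respond to disuse, and the comparison of males with females whether that response or the resting level depends on sex.

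Through its carriers a mitochondrion takes up ADP, phosphate and reducing equivalents and hands out ATP. In skeletal muscle the best known are the ADP/ATP carrier Slc25a4, the phosphate carrier Slc25a3, and the exchangers Slc25a11 and Slc25a12, which belong to the malate-aspartate shuttle that brings the electrons of cytosolic NADH into the matrix. Other members import cofactors such as coenzyme A (Slc25a42) and NAD (Slc25a51). Several members respond to calcium through EF-hand domains, among them Slc25a12 and the ATP-magnesium/phosphate carriers Slc25a23, Slc25a24 and Slc25a25.

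Libraries held between 1716485 and 9995936 counts, with a median of 4395120. Values are counts scaled to a common effective library size (CPM), and intervals for single counts are not given because the spread between animals is the error used. Acta1, the actin of muscle fibres, was below 50% of its median in 10 libraries from 10 mice, which are called the low-Acta1 libraries here. They are 5 immobilized limbs (females 2, 22, 41 and 42, and male 35) and 5 control limbs (females 26, 44 and 48, and males 52 and 55). The 7 defining genes of muscle fibres summed to 6.82 CPM in the control limb of male 52, against group medians from 126774 to 133161 CPM, so the labelled tissue is not seen in that library. The deviations from the group means correlated at 0.52 between the immobilized limb of male 15 and the control limb of male 16, and at 0.60 between the immobilized limb of male 16 and the control limb of male 15. The same correlation was 0.048 between the limbs labelled male 15 and 0.22 between those labelled male 16, and both males were kept as labelled. Without them the members called in each comparison were the same. Macrophage markers rose in the immobilized limb for 8 of 8 genes, Schwann cell markers for 4 of 6 and fibroblast markers for 3 of 7. Endothelial markers fell for 3 of 6, adipocyte markers for 1 of 8 and genes listed for brown adipocytes for 1 of 4. That last list includes Ppargc1a, which is read below as a coactivator of mitochondrial gene expression. Of the general fibre genes 0 of 7 passed (edgeR, mean of the sexes). Among all genes tested, 10.2% were higher and 9.82% lower by the same rule. A single call in so small a list is not read as a change of a cell or fibre type. Slow fibre genes fell for 1 of 7, and their summed medians were 2634 CPM in immobilized and 4219 CPM in control limbs of females, and 1999 CPM in immobilized and 3302 CPM in control limbs of males. These sums overlapped widely. They ranged from 236 to 13089 CPM in immobilized and from 147 to 11352 CPM in control limbs of females. In males they ranged from 141 to 7468 CPM in immobilized and from 123 to 13011 CPM in control limbs. The part of these cell and fibre types in the changes of the carriers was not tested. In bulk muscle, fewer cells of a type and less RNA per cell cannot be told apart.

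The ADP/ATP carrier dominated the family. Per kilobase of merged exons, which allows genes to be compared, Slc25a4 had a median of 1681 CPM over the 112 libraries, followed by Slc25a3 at 449, Slc25a11 at 170 and Slc25a12 at 73.0 CPM. Without correction for length, these 4 genes held 87.1% of the summed CPM of the 45 members, and Slc25a4 alone held 57.6%. Slc25a5, the ADP/ATP carrier of most dividing and non-muscle cells, followed per kilobase at 38.1 CPM. A row for a near-identical pseudogene, Slc25a5-ps, held 4 counts in all libraries together. The sources used here do not give how reads shared between these copies were counted, and the level of Slc25a5 is therefore uncertain. Slc25a39, needed for glutathione import, came next at 33.9 CPM per kilobase. The lowest of the tested members was Slc25a53, a carrier of unknown substrate, at 0.446 CPM per kilobase. Neighbours in the middle of this order, such as Slc25a42 at 11.0 and Slc25a46 at 10.8 CPM per kilobase, lay well within each other's range over libraries.

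**Figure D1:**
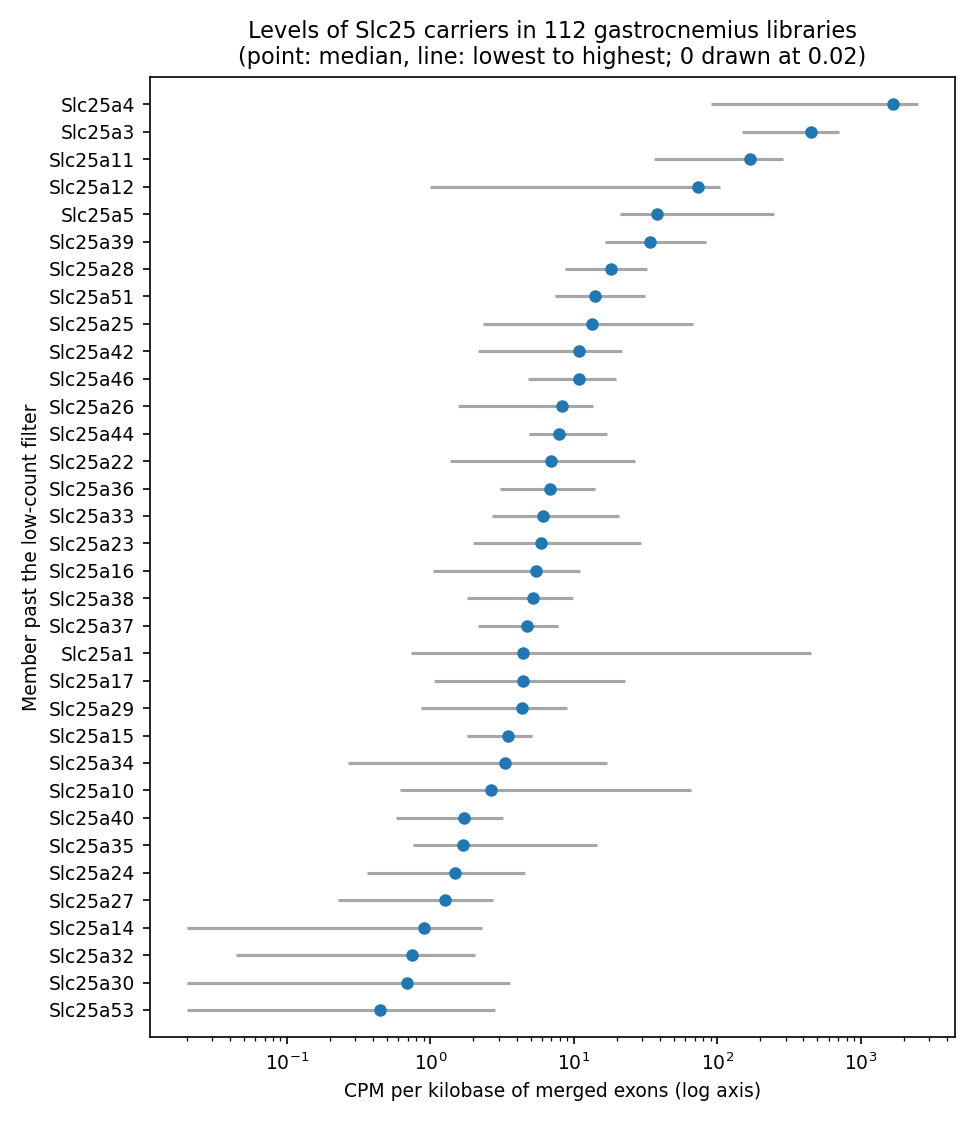
CPM per kilobase of merged exons (log axis) for the 34 tested Slc25 members over all 112 libraries, with a point at the median and a line from the lowest to the highest library. Slc25a4, at a median of 1681, stands above Slc25a3 at 449, and the lowest member is Slc25a53 at 0.446.

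The other 11 members were under the filter. The testis ADP/ATP carrier Slc25a31 had 12 counts over all libraries, Slc25a54 had 2, Slc25a41 had 16, Slc25a21 had 37, Slc25a43 had 44, Slc25a2 had 69 and Slc25a18 had 85. Slc25a13, the aspartate/glutamate carrier known from liver, had 512 counts, against 200317 for its muscle counterpart Slc25a12. Slc25a45, Slc25a47 and Slc25a48 had 1078, 536 and 512 counts. No fold change is given for these 11 genes.

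More carriers were lower than higher in the immobilized limb. Averaged over the sexes, 6 of the 34 tested members were lower in the immobilized limb and 1 was higher at an edgeR adjusted p of at most 0.05. Among all genes tested, 9.82% were lower and 10.2% higher by the same rule, so 17.6% of the members were lower against 9.82% of all genes, and 2.94% were higher against 10.2%. In either direction 20.6% of the members passed, against 20.0% of all genes. Fold changes were below 1, that is negative on the log2 scale, for 27 of 34 members, or 79.4%, and for 47.7% of all genes. Their median on that scale was -0.16 over the members and 0.01 over all genes. In mice numbered 1 to 20, 29 of 32 members were negative, with a median of -0.19. The values were 24 of 33 (median -0.18) in mice 21 to 40 and 20 of 35 (median -0.05) in mice 41 to 59. The members that fell were Slc25a34, Slc25a30, Slc25a46, Slc25a51, Slc25a38 and Slc25a16, and the member that rose was Slc25a24. None of these 7 is among the 4 most abundant carriers. Without the filter on low counts, Slc25a16, Slc25a38 and Slc25a24 missed the threshold (edgeR adjusted p = 0.086, 0.054 and 0.057). The calls within a single sex were lost as well. Of the 23414 genes then tested, 64 were lower in females, 37 in males and 880 over the sexes.

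**Figure D2:**
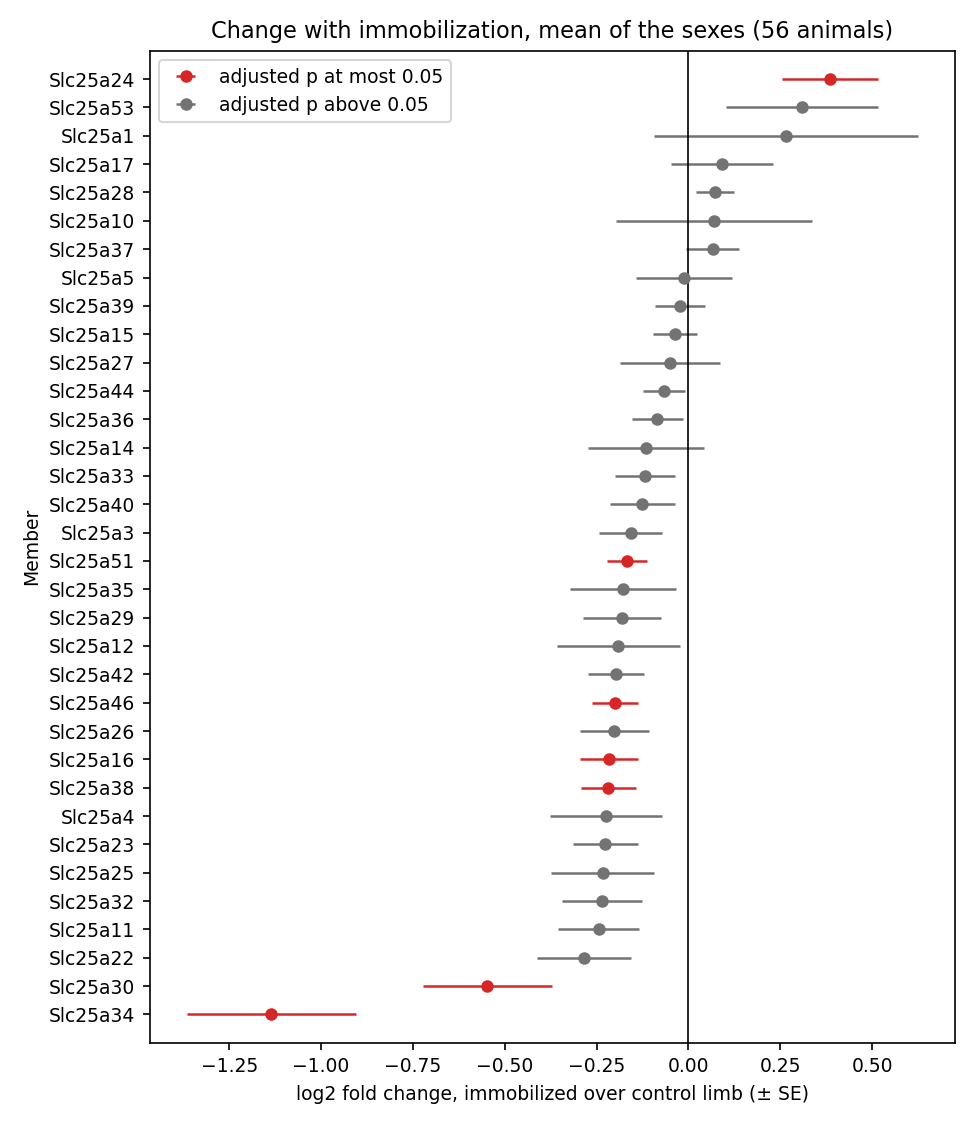
Log2 fold change of each tested Slc25 member, immobilized over control limb, as the mean of the sexes (56 mice, bars are SE of the edgeR fit), with red points for an adjusted p of at most 0.05. Slc25a34 lies at -1.14 and Slc25a24 at 0.38, and 27 of the 34 points are below 0.

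Slc25a34 had the largest change in the family. Its substrate is not established, and it belongs to a small branch of the family with Slc25a35. In females it ranged over 1.23, 5.98 and 24.8 CPM (lowest, median and highest) in immobilized limbs, against 1.15, 14.9 and 45.9 CPM in control limbs. In males it had 0.71, 6.25 and 23.5 CPM in immobilized limbs, against 1.96, 13.7 and 31.9 CPM in control limbs. The medians of the immobilized limbs were under 50% of those of the control limbs in both sexes, while the ranges overlapped widely. It changed by -1.12 ± 0.33 log2 in females (SE, edgeR adjusted p = 0.040) and -1.15 ± 0.32 in males (edgeR adjusted p = 0.042), with 22 of 28 animals lower in each sex. Averaged over the sexes it was -1.14 ± 0.23 (edgeR adjusted p = 0.00055). In mice numbered 1 to 20, 21 to 40 and 41 to 59 the mean of the sexes was -1.34, -1.22 and -0.83, and without the 10 mice with a low-Acta1 library it was -1.15 (edgeR adjusted p = 0.00012). Its relative Slc25a35 had a log2 fold change of -0.18 ± 0.14 and did not pass (edgeR adjusted p = 0.39). In females Slc25a34 was the 1 member called lower, 2.94% of the 34 against 2.31% of all genes, and 0 were higher, against 2.21% (4.52% of all genes called in either direction), and with females fitted alone its adjusted p was 0.087. In males it was likewise the 1 member called lower, 2.94% against 1.05% of all genes, and 0 were higher, against 1.21% (2.26% of all genes called in either direction).

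The upstream sequence of Slc25a34 is shown because this gene moved most, beside those of Slc25a30, the next largest decline, and Slc25a24, the one member that rose. Each runs 5′ to 3′ on the gene's strand from 250 bases before to 50 bases after the RefSeq start (GRCm38.p6). They lie at chr4:141623785-141624084 (minus strand), chr14:75786988-75787287 (minus strand) and chr3:109122899-109123198 (plus strand). Capitals mark the letters TGACCTT, which read AAGGTCA, the half-site of estrogen-related receptors, on the other strand.
Slc25a34: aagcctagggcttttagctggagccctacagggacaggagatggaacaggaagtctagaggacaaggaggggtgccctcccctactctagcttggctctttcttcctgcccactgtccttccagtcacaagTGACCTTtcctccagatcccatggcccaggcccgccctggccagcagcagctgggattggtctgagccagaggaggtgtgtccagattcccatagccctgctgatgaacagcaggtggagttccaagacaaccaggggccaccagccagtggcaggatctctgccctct
Slc25a30: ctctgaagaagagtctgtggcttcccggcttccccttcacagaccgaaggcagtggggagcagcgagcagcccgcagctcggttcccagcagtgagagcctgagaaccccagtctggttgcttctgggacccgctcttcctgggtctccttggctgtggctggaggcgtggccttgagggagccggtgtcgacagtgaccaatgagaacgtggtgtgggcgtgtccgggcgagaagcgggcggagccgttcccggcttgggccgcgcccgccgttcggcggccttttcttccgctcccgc
Slc25a24: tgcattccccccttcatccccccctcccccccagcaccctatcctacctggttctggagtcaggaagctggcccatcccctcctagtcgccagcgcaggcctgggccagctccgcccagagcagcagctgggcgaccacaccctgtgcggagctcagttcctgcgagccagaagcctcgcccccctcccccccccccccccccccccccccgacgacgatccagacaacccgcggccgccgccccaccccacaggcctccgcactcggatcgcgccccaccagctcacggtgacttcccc
The match in Slc25a34 begins 119 bases before the start, and Slc25a30 and Slc25a24 hold none. RefSeq promoters were matched for 35 of the 45 members and 26 of the 34 tested. AAGGTCA, searched on both strands, occurred in 1 of these 26 windows (3.85%), that of Slc25a34, and in 5.38% of 27025 promoters. The longer form TCAAGGTCA, which contains AAGGTCA, was in 0 of the 26 and 0.466% of all promoters, and the palindromic binding motif of the factor NRF1 in 0 of the 26 and 1.07%. The E-box CACGTG, which reads the same on both strands, occurred in 5 of the 26 (19.2%), those of Slc25a1, Slc25a14, Slc25a15, Slc25a33 and Slc25a36, and in 8.09% of all promoters. None of these 5 genes passed the edgeR test for immobilization over all mice, and these matches are descriptions of letters alone.

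Of the 8 tested carriers of cofactors, nucleotides and methyl donors, 2 were lower, beside 9.82% of all genes, and 7 had a log2 fold change below 0, beside 47.7% of all genes. Nothing particular to the group is read from counts this small. Slc25a51, the mitochondrial NAD transporter, was lower in 44 of 56 mice and fell by 0.17 ± 0.05 log2 units (SE; adjusted p = 0.023 by edgeR). Its log2 fold change was -0.24, -0.04 and -0.23 in mice numbered 1 to 20, 21 to 40 and 41 to 59. Its median was 58.9 CPM in immobilized and 64.1 CPM in control limbs of females, and 61.4 CPM in immobilized and 70.2 CPM in control limbs of males. Female values ran from 42.1 to 88.1 CPM in immobilized limbs and from 42.7 to 90.8 CPM in control limbs, and male values from 32.9 to 74.0 CPM in immobilized limbs and from 44.3 to 139 CPM in control limbs. Slc25a16, a candidate coenzyme A carrier, was lower in 37 of 56 mice, at -0.22 ± 0.08 log2 (SE; adjusted p = 0.046 by edgeR). Females had 3.27, 15.0 and 32.4 CPM in immobilized limbs, against 5.42, 19.2 and 34.8 CPM in control limbs. Males had 7.77, 17.4 and 32.5 CPM in immobilized limbs, against 8.36, 19.4 and 31.4 CPM in control limbs. The call on Slc25a16 was lost without the low-Acta1 mice (-0.16, edgeR adjusted p = 0.057). Slc25a42, which carries coenzyme A, and Slc25a26, which imports the methyl donor S-adenosylmethionine, missed the threshold at -0.20 each (edgeR adjusted p = 0.059 and 0.11). DESeq2 and limma voom called Slc25a42 lower, and its median was 32.1 CPM in immobilized and 36.9 CPM in control limbs of females, and 34.9 CPM in immobilized and 38.3 CPM in control limbs of males. The pyrimidine nucleotide carriers Slc25a33 and Slc25a36, the folate and FAD carrier Slc25a32 and the peroxisomal carrier Slc25a17 had log2 fold changes of -0.12, -0.09, -0.24 and 0.09 and did not pass (edgeR adjusted p from 0.12 to 0.67).

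Among the amino acid carriers, Slc25a38, which brings glycine into mitochondria for the first step of heme synthesis, fell by 0.22 ± 0.07 (SE, edgeR adjusted p = 0.030) and was lower in 38 of 56 mice. Female limbs had 5.91, 9.35 and 13.9 CPM when immobilized and 5.19, 9.61 and 17.6 CPM as controls. Male limbs had 3.23, 8.42 and 15.2 CPM when immobilized and 6.07, 9.58 and 16.0 CPM as controls. The groups overlapped almost fully. The basic amino acid carrier Slc25a29, the branched-chain amino acid carrier Slc25a44 and the ornithine carrier Slc25a15 had -0.18, -0.07 and -0.04 and did not pass (edgeR adjusted p from 0.22 to 0.70).

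Slc25a46 sits in the outer membrane, where it takes part in mitochondrial fusion and fission. It fell by 0.20 ± 0.06 (SE, edgeR adjusted p = 0.020) and was lower in 36 of 56 mice, 21 of them females. Its median was 41.8 CPM in immobilized and 50.8 CPM in control limbs of females, and 46.3 CPM in immobilized and 50.7 CPM in control limbs of males. Over single libraries it ran from 21.0 to 63.6 CPM in immobilized and 22.4 to 69.9 CPM in control limbs of females, and from 20.9 to 85.9 CPM in immobilized and 36.4 to 64.0 CPM in control limbs of males.

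Slc25a30, a relative of the uncoupling proteins, was low in abundance and had the second largest decline. Females had 0, 1.67 and 4.07 CPM in immobilized limbs, against 0.68, 2.09 and 8.65 CPM in control limbs. Males had 0.36, 2.55 and 9.31 CPM in immobilized limbs, against 0.43, 5.16 and 13.0 CPM in control limbs. Over the sexes it changed by -0.55 ± 0.18 log2 (SE, edgeR adjusted p = 0.021), with 36 of 56 mice lower. It was -0.04 in mice numbered 1 to 20, -0.90 in those numbered 21 to 40 and -0.74 in those numbered 41 to 59. The related Slc25a14 and Slc25a27 had -0.11 and -0.05 and did not pass (edgeR adjusted p = 0.64 and 0.83).

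**Figure D3:**
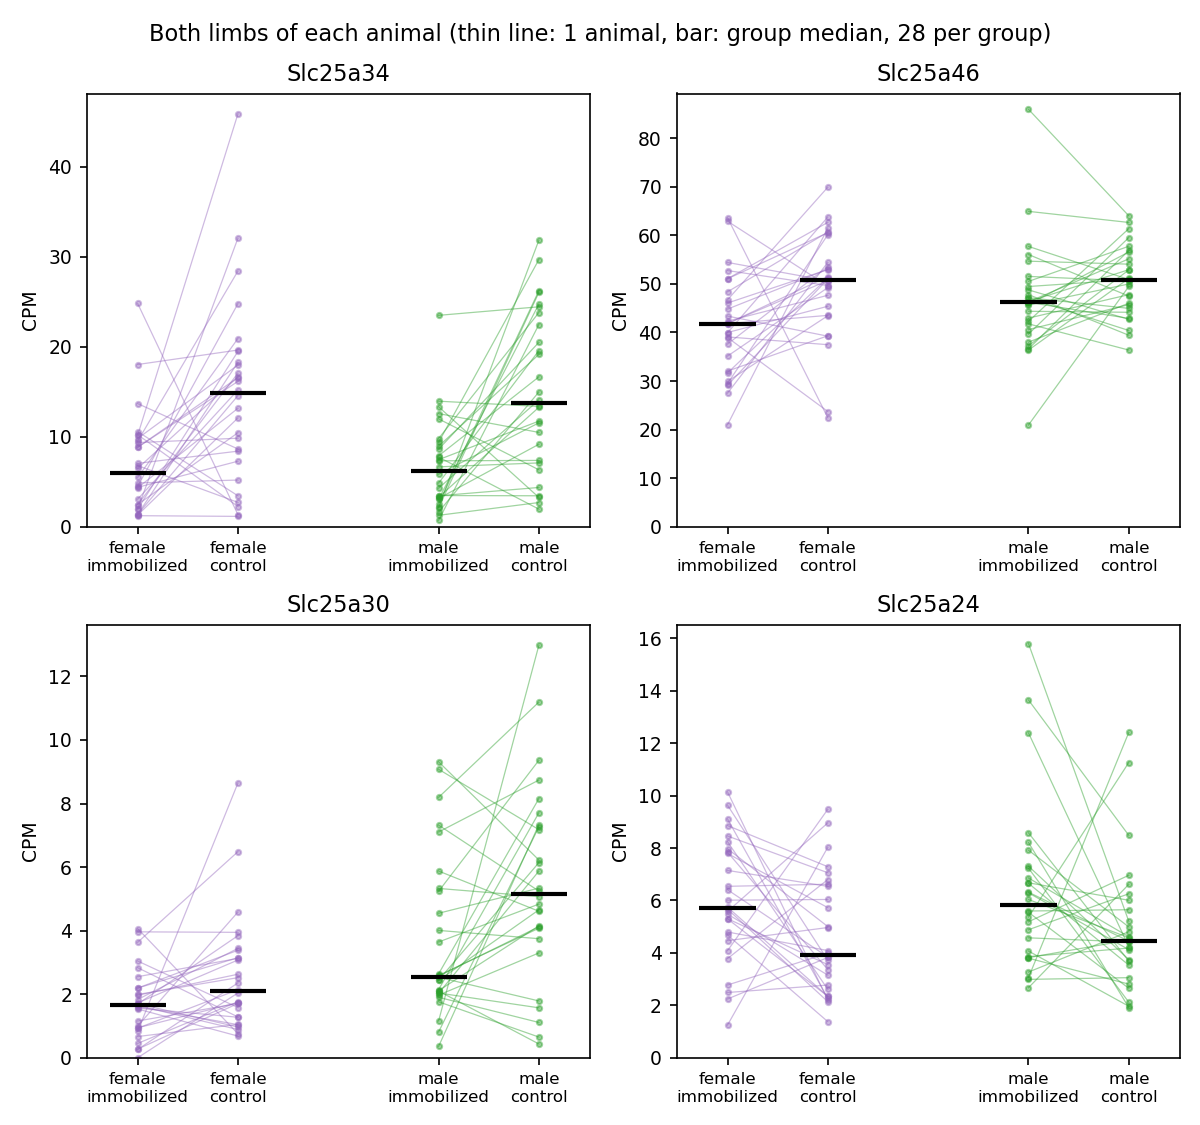
CPM of Slc25a34, Slc25a46, Slc25a30 and Slc25a24 in both limbs of each mouse, immobilized left of control within each sex, with a thin line per mouse and a bar at the median of 28. For Slc25a34 the medians are 5.98 CPM in immobilized and 14.9 CPM in control limbs of females and 6.25 CPM in immobilized and 13.7 CPM in control limbs of males, and 44 of the 56 lines show the immobilized limb lower.

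Slc25a24 was the member that rose. It exchanges ATP-magnesium for phosphate in response to calcium, and so adjusts the pool of adenine nucleotides in the matrix. Females had 1.25, 5.71 and 10.1 CPM in immobilized limbs, against 1.38, 3.91 and 9.48 CPM in control limbs. Males had 2.67, 5.82 and 15.8 CPM in immobilized limbs, against 1.92, 4.47 and 12.4 CPM in control limbs. The medians were higher in the immobilized limb in both sexes, and the ranges overlapped. The log2 fold change was 0.38 ± 0.13 (SE, edgeR adjusted p = 0.030) with 36 of 56 mice higher, and 0.37 without the low-Acta1 mice (edgeR adjusted p = 0.042). The summed macrophage markers had a median of 150 CPM in immobilized and 80.7 CPM in control limbs of females, and 93.0 CPM in immobilized and 70.1 CPM in control limbs of males. They ranged from 15.0 to 747 CPM in immobilized and from 37.8 to 417 CPM in control limbs of females, and from 24.8 to 1403 CPM in immobilized and from 16.0 to 223 CPM in control limbs of males. All 8 genes of that list rose, and their part in the rise of Slc25a24 was not tested. The other calcium-regulated ATP-magnesium carriers, Slc25a23 and Slc25a25, had log2 fold changes of -0.23 each and did not pass (edgeR adjusted p = 0.060 and 0.23). DESeq2 and limma voom called Slc25a23 lower. Its median was 19.9 CPM in immobilized and 20.6 CPM in control limbs of females. In males it was 16.8 CPM in immobilized and 20.6 CPM in control limbs. The highest library for Slc25a23 was the control limb of male 52, at 99.2 CPM. Without the low-Acta1 mice its log2 fold change was -0.14 (edgeR adjusted p = 0.20). The ratio of Slc25a24 to Slc25a25 within a limb changed by 0.50 ± 0.20 on the log2 scale (SE, n = 56) and was higher in 35 of 56 immobilized limbs, but did not pass after adjustment over the 5 ratios of related carriers (sign-flip permutation p = 0.013, adjusted p = 0.066). The other 4 ratios, Slc25a5 to Slc25a4, Slc25a37 to Slc25a28, Slc25a40 to Slc25a39 and Slc25a33 to Slc25a36, changed by 0.19, -0.01, -0.06 and -0.02 (sign-flip permutation adjusted p from 0.90 to 0.91).

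The 4 most abundant carriers had negative fold changes over all mice without passing the test. In mice numbered 41 to 59 they were near 0, at 0.084 for Slc25a4, 0.013 for Slc25a3, 0.027 for Slc25a12 and -0.04 for Slc25a11 on the log2 scale. Slc25a4 had 367, 2796 and 4306 CPM in immobilized limbs of females, against 448, 3430.2 and 4451 CPM in control limbs. In males it had 254, 3099.6 and 4854 CPM in immobilized limbs, against 175, 3612 and 4270.4 CPM in control limbs. The low-Acta1 libraries stand far below the rest in these values: all 10 were lower than each of the other 102 libraries for Slc25a4, with a highest value of 1304 CPM against a lowest of 1456 CPM. The same held for Slc25a3 and Slc25a12, and for 7 of the 10 libraries in Slc25a11. Slc25a4 was lower in 41 of 56 mice, with a mean change of -0.22 ± 0.15 log2 (SE; adjusted p = 0.30 by edgeR). Without the 10 mice with such a library it was -0.23 ± 0.06 (SE, edgeR adjusted p = 0.0011), with 36 of 46 mice lower.

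Slc25a3, which carries the phosphate used by ATP synthase, had medians of 810.4 CPM in immobilized and 891 CPM in control limbs of females, and 869 CPM in immobilized and 998 CPM in control limbs of males. Its log2 fold change was -0.16 ± 0.08 over all mice (SE, edgeR adjusted p = 0.18) and -0.17 ± 0.05 without the low-Acta1 mice (edgeR adjusted p = 0.0080). Slc25a11, the oxoglutarate/malate exchanger, had medians of 248 CPM in immobilized and 316 CPM in control limbs of females, and 268 CPM in immobilized and 306 CPM in control limbs of males. It changed by -0.24 ± 0.11 (SE, edgeR adjusted p = 0.11) and by -0.26 ± 0.06 without those mice (edgeR adjusted p = 0.0010). Slc25a12, the calcium-regulated aspartate/glutamate exchanger, had medians of 408 CPM in immobilized and 492 CPM in control limbs of females, and 441 CPM in immobilized and 468 CPM in control limbs of males. It changed by -0.19 ± 0.17 (SE, edgeR adjusted p = 0.44) and by -0.19 ± 0.06 without those mice (edgeR adjusted p = 0.016). The fold changes of these genes moved little, and their errors shrank. Slc25a22, a glutamate carrier, had -0.28 ± 0.13 over all mice and did not pass (edgeR adjusted p = 0.11).

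Without the low-Acta1 mice, 11 of 33 tested members were lower in the mean of the sexes, or 33.3%, against 16.7% of all genes, and 1 was higher, again Slc25a24, against 15.8%. The 11 were 5 of the 6 named above, with Slc25a16 missing, together with Slc25a3, Slc25a4, Slc25a11, Slc25a12, Slc25a26 and Slc25a42. In females 6 members were then lower, against 9.34% of all genes, and 0 higher, against 7.86%. In males 2 were lower, against 4.97% of all genes, and 0 higher, against 4.14%. In females these were Slc25a4, Slc25a11, Slc25a26, Slc25a34, Slc25a36 and Slc25a46, and in males Slc25a34 and Slc25a38.

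Several carriers followed markers of cells other than muscle fibres across mice. Slc25a1, the citrate carrier that feeds cytosolic fatty acid synthesis, had medians of 17.0 CPM in immobilized and 12.2 CPM in control limbs of females, and 5.20 CPM in immobilized and 4.14 CPM in control limbs of males, with a highest library of 755 CPM, a control limb of a female. The dicarboxylate carrier Slc25a10 had medians of 8.60 CPM in immobilized and 6.27 CPM in control limbs of females, and 4.15 CPM in immobilized and 4.93 CPM in control limbs of males, with a highest library of 134 CPM, the control limb of male 52. Their log2 fold changes were 0.27 ± 0.36 and 0.07 ± 0.27 and did not pass (SE, edgeR adjusted p = 0.63 and 0.88). In male 52, the control limb had 19590.3 CPM of summed adipocyte markers, 175 CPM of Slc25a4 and 6.33 CPM of Slc25a12, the lowest of all libraries for both carriers, while the immobilized limb had 408 CPM of these markers, 3088 CPM of Slc25a4 and 440.4 CPM of Slc25a12.

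The change of Slc25a1 between the limbs of a mouse correlated with that of the summed adipocyte markers at Pearson r = 0.90 and Spearman rho = 0.81 over 56 mice (permutation p = 1e-05, the smallest the permutations can give, adjusted p = 1.2e-05 over 5 relations). Without the 2 mice farthest from the median of the marker change r was 0.87, without the low-Acta1 mice 0.88, and in mice numbered 1 to 20, 21 to 40 and 41 to 59 it was 0.92, 0.75 and 0.97. For Slc25a10 and the same markers r was 0.90 and rho 0.80 (permutation adjusted p = 1.2e-05), with 0.86 without the 2 farthest mice, 0.85 without the low-Acta1 mice and 0.92, 0.79 and 0.96 in the 3 number ranges. Slc25a5 followed the macrophage markers at r = 0.75 and rho = 0.69 (permutation adjusted p = 1.2e-05), with 0.72 without the 2 farthest mice, 0.63 without the low-Acta1 mice and 0.75, 0.82 and 0.73 in the number ranges. In these 3 relations both measures come from the same libraries, and r was above 0.6 in each subset of mice given here. Slc25a5 was not set against the adipocyte markers, nor were Slc25a1 and Slc25a10 set against the macrophage markers. Whether either relation is particular to its cell type was therefore not tested. The log2 fold change of Slc25a5 itself was -0.01 ± 0.13 (SE, edgeR adjusted p = 0.96).

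The change of Slc25a4 was set against that of Ppargc1a, a coactivator of mitochondrial gene expression. Over 56 mice r was 0.64 and rho 0.50 (permutation adjusted p = 1.2e-05 and 6.2e-05), and r was 0.50 without the 2 farthest mice. Without the low-Acta1 mice, which hold the extremes of the Slc25a4 change, r was 0.23 and did not pass (permutation p = 0.12, n = 46). In mice numbered 1 to 20, 21 to 40 and 41 to 59 it was 0.20, 0.85 and 0.57. The iron importer mitoferrin-1, Slc25a37, which supplies heme synthesis in red cell precursors, was set against the erythroid markers and had r = -0.21 and rho = -0.29 (permutation adjusted p = 0.13 and 0.031). It had r = -0.35 without the 2 farthest mice and -0.35 without the low-Acta1 mice, and 0.16, -0.29 and -0.49 in the number ranges, so this relation did not hold in all ranges.

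**Figure D4:**
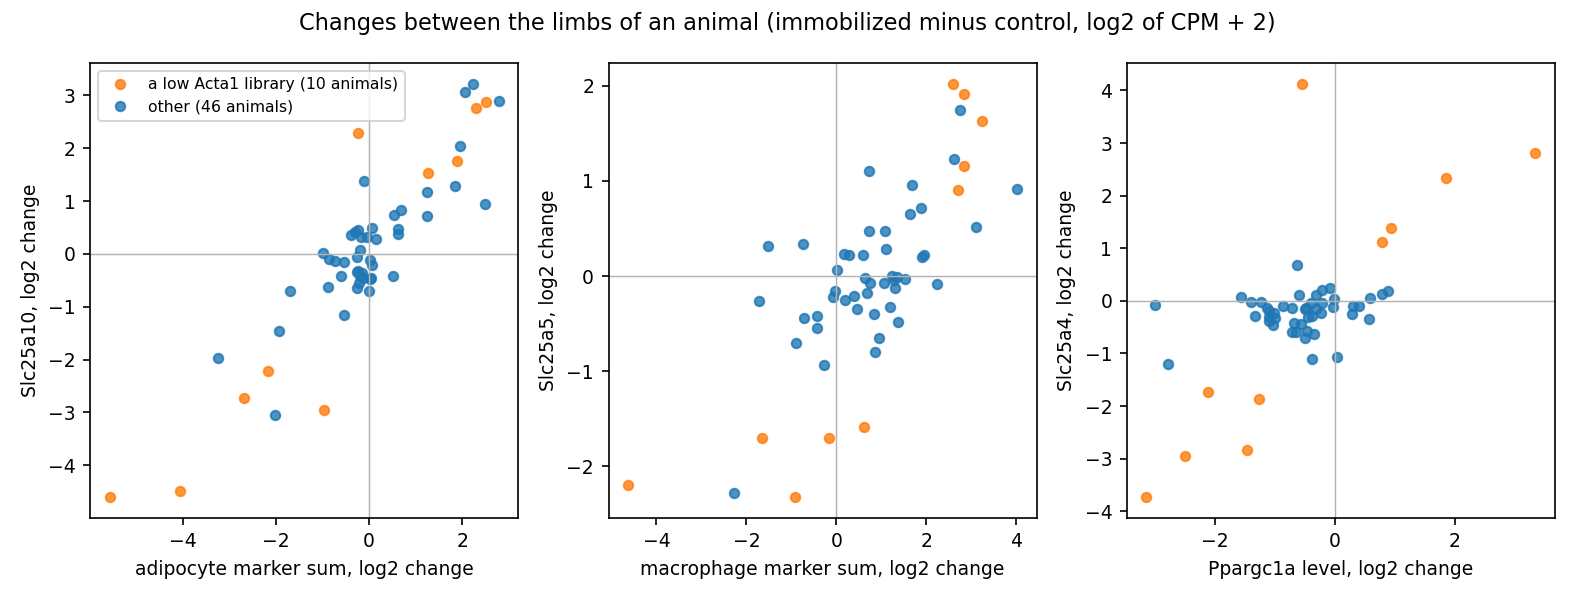
Change between the limbs of each mouse (immobilized minus control, log2 of CPM + 2) for Slc25a10 against summed adipocyte markers, Slc25a5 against summed macrophage markers and Slc25a4 against Ppargc1a, with orange points for the 10 mice with a low-Acta1 library and blue points for the other 46. Pearson r over all mice is 0.90, 0.75 and 0.64 from left to right, and in the right panel the orange points take the extremes of the vertical axis.

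The response to the cast did not differ detectably between the sexes. For the male minus female difference, 0 of 34 members passed by edgeR, against 0.0% of all genes. An unadjusted edgeR p of at most 0.05 was reached by 0 of 34 members and by 193 of 11886 genes. With so small a share over all genes, the 0 is not read as particular to the members. DESeq2 and limma voom also called 0 members. The differences ran from -0.70 to 0.24 on the log2 scale over the members, and for Slc25a34 the difference was -0.03 ± 0.46 (SE). Errors of this size leave room for differences that these 28 mice per sex could not show.

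Between the control limbs of males and females, 2 of 32 tested members were higher in males and 0 lower. That is 6.25%, against 0.966% of all genes higher and 0.775% lower in males (1.74% called in either direction). The counts of males and females stand in separate deposited tables, so sex and table cannot be told apart here. Slc25a30 had a median of 5.16 CPM in control limbs of males, from 0.43 to 13.0 CPM, and 2.09 CPM in control limbs of females, from 0.68 to 8.65 CPM. The log2 fold change, male over female, was 1.11 ± 0.24 (SE, edgeR adjusted p = 0.0045), and 0.92, 1.498 and 0.76 in the 3 number ranges. Slc25a28, mitoferrin-2, which imports iron in most tissues, had a median of 29.3 CPM in control limbs of males, from 18.1 to 42.1 CPM, and 24.8 CPM in control limbs of females, from 13.3 to 35.5 CPM. Its log2 fold change was 0.33 ± 0.08 (SE, edgeR adjusted p = 0.015), and 0.39, 0.26 and 0.36 in the number ranges. With immobilization Slc25a28 had a log2 fold change of 0.07 ± 0.05 and did not pass (edgeR adjusted p = 0.33).

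Slc25a25 varied widely between mice, and both limbs of a mouse tended to be alike. Its lowest, median and highest values were 9.54, 45.1 and 240.2 CPM in immobilized and 12.2, 54.8 and 249.6 CPM in control limbs of females, and 10.4, 65.2 and 192 CPM in immobilized and 17.6, 58.3 and 279 CPM in control limbs of males. Its log2 fold change with immobilization was -0.23 ± 0.14 (SE, edgeR adjusted p = 0.23). The levels in the immobilized and the control limb of a mouse, as deviations from the mean of the sex, correlated at r = 0.58 and rho = 0.58 over 56 mice, a measure added after the data had been seen (permutation adjusted p = 0.0012 over 11886 genes). That r lay at percentile 97.3 of all genes, was 0.59 without the 2 farthest mice and 0.70 without the low-Acta1 mice, and was 0.64, 0.42 and 0.58 in the number ranges. The measure was not repeated without males 15 and 16. Slc25a25 had 179 CPM in the immobilized and 41.9 CPM in the control limb of male 15. In male 16 it had 40.5 CPM in the immobilized and 279 CPM in the control limb. Slc25a16 also passed, at r = 0.43 and rho = 0.45 (permutation adjusted p = 0.025), with 0.38 without the 2 farthest mice and 0.59 without the low-Acta1 mice. Of the members 2 of 34, or 5.88%, passed, against 7.87% of all genes, and the median r was 0.054 over the members and 0.072 over all genes. Slc25a34 had r = -0.12 and Slc25a24 had r = -0.09, and neither passed (permutation adjusted p = 0.76 and 0.83).

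**Figure D5:**
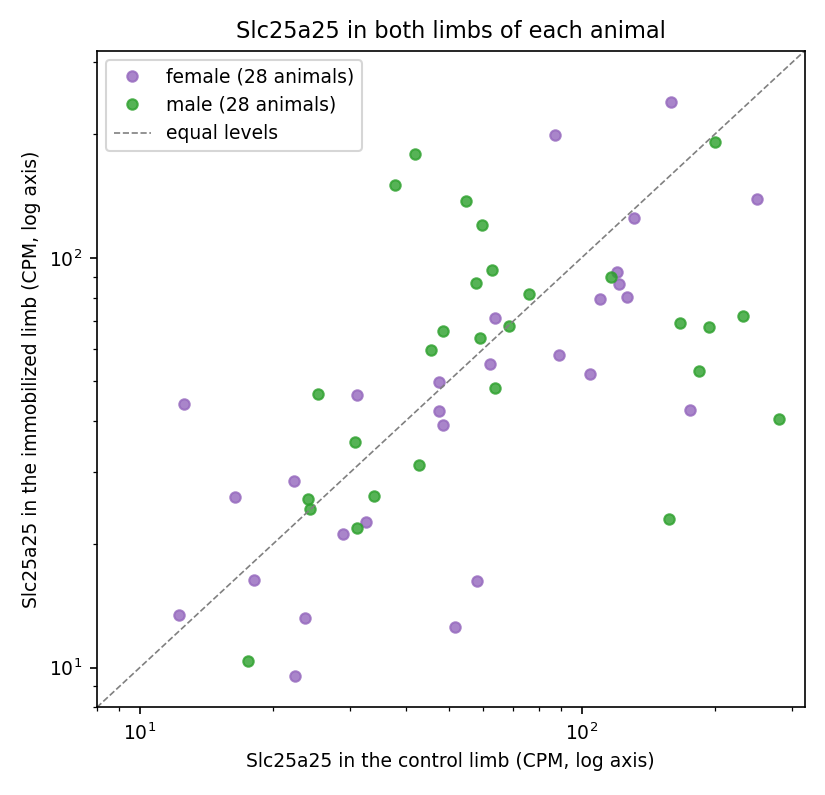
Slc25a25 in the immobilized limb (vertical, CPM, log axis) against the control limb (horizontal, CPM, log axis) of each mouse, with females in purple, males in green and a dashed line at equal levels. Mice high in one limb tended to be high in the other, with r = 0.58 for the log2 levels as deviations from the mean of the sex.

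Other transport genes of mitochondria were read from the same fit, as the mean of the sexes, in which 9.82% of all genes were lower and 10.2% higher. A single call in a list of 8 or 15 genes is near those shares. The lists are small, and whether any of them differs from all genes was not tested. Both subunits of the pyruvate carrier fell, Mpc1 by 0.46 ± 0.10 and Mpc2 by 0.34 ± 0.09 (SE, edgeR adjusted p = 0.0015 and 0.0081), and Mpc1 was lower in 47 of 56 mice. With the sideroflexins, 2 of 7 genes of that list were lower and 1 higher, Sfxn3 at 0.31 (edgeR adjusted p = 0.0016). Of the 5 relatives of the Slc25 genes under other symbols, the uncoupling proteins and the outer membrane proteins Mtch1 and Mtch2, 0 were lower and 1 was higher, Mtch1 at 0.25 (edgeR adjusted p = 0.0020). Mitochondrial creatine kinase Ckmt2 fell by 0.75 ± 0.25 and the matrix adenylate kinase Ak3 by 0.24 ± 0.04 (SE, edgeR adjusted p = 0.025 and 6.6e-05), 2 of 4 in their list. Outer membrane channels and import pores had 3 of 10 lower, Tomm70a at -0.19, Timm10 at -0.21 and Tomm20 at -0.12 (edgeR adjusted p from 0.024 to 0.042). Letm1, 1 of 8 in calcium and cation transport, and Abcb8, 1 of 4 inner membrane ABC transporters, had -0.13 and -0.22 and were lower (adjusted p = 0.040 and 0.016 by edgeR). Of 15 nuclear subunits of ATP synthase, Atp5j was lower at -0.33 and Atp5g2 higher at 0.48 (edgeR adjusted p = 0.040 and 0.0014), and the median of that list was -0.07.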

How the data were processed

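RNA of gastrocnemius muscle was made into stranded libraries after removal of ribosomal RNA, per the labels' protocols. For each sex the authors deposited 1 table of raw counts by gene symbol, with whole numbers throughout and 0 rows without a name. Aligner, counter, build and use of strand in counting: not given in the sources used here. Groups and animal numbers come from the sample labels.

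The whole table was fitted with edgeR 4.0.16 in R 4.3.3 (filterByExpr, TMM, quasi-likelihood test, Benjamini-Hochberg over all genes, threshold 0.05), with a term for each animal and an immobilization effect per sex. Sex was tested in the 56 control limbs. The limbs of an animal pair by its number: deviations from the group mean correlated with a median of 0.35 within and 0.0087 between animals, above 0.1 in 44 of 56. Exon lengths come from GENCODE M21 and promoters from RefSeq (GRCm38.p6). Changes within a mouse use log2 of CPM plus 2. Permutation tests were two-sided with 100000 resamples. The fits were tested on simulated data. Named in full are members past the threshold in any of the 5 main edgeR comparisons and the 6 with the highest mean CPM. The others are given beside related members, with up to 4 genes per related list. Members and lists were chosen with earlier results of these data known. Alternatives were median-of-ratios size factors, libraries without mitochondrial-genome genes, other filters, DESeq2 1.42.0, limma voom 3.58.1, no animal block, each sex alone, number ranges, and subsets of animals. Reads carried no molecular identifiers. The labels do not say what the animal numbers order. The 2 Slc25 symbols left out and the comparison of protein sequences are not reported here.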

Additional observations from a re-analysis of the deposited data

How the results depend on the processing

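With other size factors, without mitochondrial-genome genes, with a mean of at least 1 CPM and without males 15 and 16, the members called in the 5 fits were the same ones. The 6 declines over the sexes were also called by DESeq2 and limma voom. Each called 8 members lower, beside 1393 and 1277 of 11886 genes, with Slc25a23 and Slc25a42 as the added ones. Without a low-count filter, 0 members were lower in females, 0 in males, and 4 lower and 0 higher over the sexes. Of the 23414 genes in that adjustment, 64 were lower in females and 37 in males. Over the sexes 880 of them were lower and 1015 higher. By DESeq2, 2 members were lower in females and 2 in males, beside 548 and 253 of 11886 genes. Without the low-Acta1 mice, 6 were lower in females and 2 in males, beside 1096 and 583 of 11731 genes. With females alone 0 members were lower, beside 25 of 11109 genes. Members lower over the sexes numbered 11 without the low-Acta1 mice, beside 1962 of 11731 genes. The limbs are paired, and with no replicate block 1 member was lower in females, 4 in males and 5 over the sexes, beside 282, 273 and 1173 of 11886 genes. Of the 6 declines 4 were among those 5, Slc25a16 and Slc25a38 missed the threshold (edgeR adjusted p = 0.10 and 0.057), and Slc25a35 was added. In mice numbered 1 to 20, 21 to 40 and 41 to 59, members lower over the sexes numbered 2, 0 and 0 and higher 0, 0 and 0, while of all genes 609, 0 and 0 were lower and 484, 1 and 2 higher, so the zeros are not particular to the members. Members lower in females numbered 1, 0 and 0, beside 312, 0 and 0 of all genes. In males they numbered 0, 0 and 0, beside 1, 0 and 0 of all genes. Members higher in control limbs of males numbered 0, 1 and 0, beside 15, 21 and 5 of all genes. The fits by number range held 20, 18 and 18 mice, against 56 in the main fit. In the same order, 19, 15 and 12 of these mice had no low-Acta1 library. Why the number of genes called differed between ranges of similar size was not tested.

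Over the sexes, Slc25a4, Slc25a3 and Slc25a12 had log2 fold changes of 0.084, 0.013 and 0.027 in mice numbered 41 to 59. The ratio of Slc25a33 to Slc25a36 changed by 0.050 without the low-Acta1 mice and by 0.093 and 0.079 in mice numbered 1 to 20 and 21 to 40. Slc25a37 to Slc25a28 changed by 0.28 in mice numbered 1 to 20, and Slc25a5 to Slc25a4 and Slc25a40 to Slc25a39 by -0.34 and 0.14 in those numbered 41 to 59. The relation of Slc25a37 to erythroid markers was 0.16 in mice numbered 1 to 20. The causes were not tested. Depth limits members such as Slc25a30, with a median of 11.0 counts per library.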
